A study of Mus musculus with 2 samples.

Results

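The 10 genes described here belong to innate immune sensing, measured in imiquimod-treated mouse skin: the Toll-like receptors Tlr7, Tlr9, Tlr2, Tlr3 and Tlr4, the adaptor Myd88, the receptor chaperone Unc93b1, the kinase Irak4, the inhibitor Irak3 and the transcription factor Irf5. They were chosen by name, as 10 of the 31053 genes in the count tables, and all 10 were detected in both libraries. Droplet single-cell RNA libraries were made from back skin, 1 from Chrna5-/- mice (KO) and 1 from wild-type mice (WT). Chrna5 codes for a subunit, alpha 5, of acetylcholine receptors of the nicotinic type. Mice of both genotypes were female, 6 to 8 weeks old and of C57BL/6 background, and both received 62.5 mg of 5% imiquimod cream on shaved back skin on 6 days, with skin taken on day 7. The labels name C57BL/6N for the colony and C57BL/6J for the digested skin. They give 5 mice per group without stating how many mice went into a library. Viable cells were sorted before capture. A cream-base group is named in the labels and is not analysed here, so every value below is from treated skin.

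Toll-like receptors are sensors of microbial and self molecules. Tlr2 and Tlr4 sit at the cell surface, where they detect bacterial lipoproteins and lipopolysaccharide, and Tlr3, Tlr7 and Tlr9 sit in endosomes, where they detect double-stranded RNA, single-stranded RNA and unmethylated CpG DNA. Imiquimod is a small imidazoquinoline that activates TLR7, and its cream is used in mice to set off skin inflammation that resembles psoriasis. Endosomal receptors need Unc93b1, which carries them out of the endoplasmic reticulum. All of these receptors except Tlr3 signal through Myd88, which recruits the kinase Irak4. Irf5 is a transcription factor activated downstream of Myd88 in myeloid cells. Irak3, also called IRAK-M, is an inhibitor of the Myd88 complex. In mouse skin, macrophages, Langerhans cells and plasmacytoid dendritic cells are the textbook responders to imiquimod.

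Each value below compares 1 library with 1 library, so no difference has a replicate check and no test between genotypes was possible. Filtering left 10233 KO cells (median 6374 unique molecules counted, UMIs) and 13938 WT cells (median 4603 UMIs), and 49 cell barcodes occurred in both libraries. Chrna5 itself had 6 UMIs in KO and 12 in WT cells, too few to check the genotype labels. Cells were put into 11 classes by the summed share of marker genes in each cell, and class names end in -like because the limits were set on these data. No member is among these markers. A level is given as CPM, the gene's UMIs divided by all UMIs of the class in that library, times 1000000, and intervals are 95% and cover counting error only. Levels are not corrected for gene length and are compared within a gene. In droplet data, free RNA adds UMIs to cells that do not make a gene. S100a8, abundant in neutrophils and inflamed keratinocytes, had levels in monocyte and macrophage-like cells of 11.3 CPM in KO and 351 CPM in WT, and in fibroblast-like cells of 8.06 CPM in KO and 295 CPM in WT. The red-cell gene Hbb-bs stood at 5.52 CPM in KO and 223 CPM in WT fibroblast-like cells. The part of such RNA in the differences below was not tested.

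All members are protein-coding genes, placed here on the mm10 build. Tlr7 is at chrX:167304929-167330558 on the minus strand, Tlr9 at chr9:106222598-106226883 on the plus strand, Tlr2 at chr3:83836272-83841767 on the minus strand, Tlr3 at chr8:45395665-45411080 on the minus strand and Tlr4 at chr4:66827584-66930284 on the plus strand. Unc93b1 is at chr19:3935186-3949340 on the plus strand, Irf5 at chr6:29526625-29541871 on the plus strand and Irak4 at chr15:94543643-94581815 on the plus strand. Myd88, at chr9:119335934-119341411 on the minus strand, overlaps Slc22a14 on the same strand and Acaa1a on the other. Irak3, at chr10:120141648-120202130 on the minus strand, overlaps Tmbim4 and Gm47009 on the other strand. Tlr3 overlaps Gm45542, Irak4 overlaps Twf1 and Irf5 overlaps Tnpo3, each on the opposite strand. The sources used here do not give how the counting treated strand and shared sequence, so reads of these 5 genes and their neighbours may be split differently from the annotation.

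Promoters are shown for 4 members that stand for the different class patterns in the results that follow: Tlr9 of myeloid cells, Tlr3 of vascular endothelium, Myd88 of most classes and Irak3 of fibroblasts. Each is 300 bases from RefSeq (GRCm38.p6, the same assembly as mm10), 250 before and 50 after an annotated start, 5′ to 3′ on the gene's strand. RefSeq windows were matched for 7 of the 10 members, and Tlr7, Tlr4 and Unc93b1 are named without one. Capitals mark GAGGAA, the core bound by the myeloid factor PU.1, and a pair of GAAA with 2 bases between them, the core of the interferon-stimulated response element, each on either strand. The windows are chr9:106222348-106222647 (plus strand) for Tlr9, chr8:45410331-45410630 (minus strand) for Tlr3, chr9:119339969-119340268 (minus strand) for Myd88, and chr10:120202081-120202380 and chr10:120201548-120201847 (minus strand) for the upstream and downstream starts of Irak3.
Tlr9: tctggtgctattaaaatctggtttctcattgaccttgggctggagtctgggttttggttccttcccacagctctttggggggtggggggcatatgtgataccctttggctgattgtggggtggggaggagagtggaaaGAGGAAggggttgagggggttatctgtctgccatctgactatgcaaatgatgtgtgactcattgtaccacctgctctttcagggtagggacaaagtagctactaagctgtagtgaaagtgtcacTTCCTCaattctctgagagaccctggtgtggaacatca
Tlr3: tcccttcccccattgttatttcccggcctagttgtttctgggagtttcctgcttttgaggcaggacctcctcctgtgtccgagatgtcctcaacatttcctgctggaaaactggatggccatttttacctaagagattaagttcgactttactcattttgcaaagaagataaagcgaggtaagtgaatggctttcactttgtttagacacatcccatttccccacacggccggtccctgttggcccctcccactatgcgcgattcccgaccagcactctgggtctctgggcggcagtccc
Myd88: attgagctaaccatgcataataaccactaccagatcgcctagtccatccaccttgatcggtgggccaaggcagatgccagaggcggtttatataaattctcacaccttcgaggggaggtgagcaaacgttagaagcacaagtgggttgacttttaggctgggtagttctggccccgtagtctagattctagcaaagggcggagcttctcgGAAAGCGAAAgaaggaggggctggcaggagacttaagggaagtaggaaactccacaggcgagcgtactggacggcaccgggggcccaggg
Irak3 upstream start: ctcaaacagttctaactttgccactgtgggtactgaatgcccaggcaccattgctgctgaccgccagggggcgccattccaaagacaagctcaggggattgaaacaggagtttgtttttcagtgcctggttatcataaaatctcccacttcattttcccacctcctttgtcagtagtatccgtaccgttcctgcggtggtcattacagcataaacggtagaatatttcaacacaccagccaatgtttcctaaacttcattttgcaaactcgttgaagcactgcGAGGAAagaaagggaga
Irak3 downstream start: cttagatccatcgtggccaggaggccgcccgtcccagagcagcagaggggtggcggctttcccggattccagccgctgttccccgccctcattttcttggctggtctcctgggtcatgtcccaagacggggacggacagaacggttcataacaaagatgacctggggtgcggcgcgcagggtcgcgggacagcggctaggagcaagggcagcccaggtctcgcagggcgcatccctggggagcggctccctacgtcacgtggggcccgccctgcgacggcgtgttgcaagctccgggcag
GAGGAA occurs 2 times in the Tlr9 window, once on each strand, and 1 time in that of the upstream Irak3 start, and 28.3% of 32851 RefSeq promoter windows hold it. The spaced GAAA pair occurs 1 time in the Myd88 window, from position 211 counted from the 5′ end, and 3.44% of windows hold it. Neither core is in the Tlr3 window or in that of the downstream Irak3 start. The matched windows of Irf5 and Tlr2, not shown, also hold GAGGAA 0 times. Both genes were highest in monocyte and macrophage-like or Cd207+ cells, so the core is not shared by the myeloid members. None of the marked matches overlap. These are matches of letters, and no binding was measured here.

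Tlr7, the receptor for imiquimod, was read mainly from monocyte and macrophage-like cells. This class gave 107 of 140 Tlr7 UMIs in KO and 216 of 276 in WT cells, which is 76.4% and 78.3%. Its level was 22.0 CPM (18.1 to 26.6) in KO and 30.8 CPM (26.8 to 35.2) in WT cells of the class. Keratinocyte-like cells stood at 0.152 CPM in KO and 0.253 CPM in WT, and fibroblast-like cells at 0.110 CPM in KO and 0.329 CPM in WT. The level in monocyte and macrophage-like cells was thus 145-fold (77.6 to 298) above that in keratinocyte-like cells in KO and 122-fold (81.4 to 189) above it in WT. Tlr7 had 0 UMIs in both libraries in pericyte, vascular endothelial, lymphatic endothelial, Schwann, melanocyte and mast-like cells. Cd207+ cells, gated by this Langerhans cell marker alone, held 9 Tlr7 UMIs in KO (9.49 CPM) and 4 in WT (3.50 CPM), and T-like cells held 3 in KO and 2 in WT. The Cd207+ level was below that of monocyte and macrophage-like cells in both libraries, by intervals that left out 1. When cells of both libraries were clustered together, a cluster led by Cd74, H2-Aa and H2-Eb1 held 46 KO and 66 WT Cd207+ cells. It also held 385 KO and 381 WT monocyte and macrophage-like cells. The cluster led by Cd74 and Cd207 held 41 KO and 31 WT Cd207+ cells. Levels of Cd207+ cells, here and below, may thus not be those of Langerhans cells alone.

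A Tlr7 UMI was seen in 83 of 713 KO monocyte and macrophage-like cells (11.6%, 9.38 to 14.2) and in 149 of 768 WT ones (19.4%, 16.7 to 22.4), at median depths of 6500 and 8751.5 UMIs. Vascular endothelial-like cells held none. That count of 0 allows a share of cells with a Tlr7 UMI of up to 1.57% of 191 KO cells (median 8058 UMIs) and 4.23% of 71 WT cells (median 11283 UMIs), and sets no limit on cells that make Tlr7 below this depth. With cells thinned to 1000 UMIs apiece, leaving out 29 KO and 31 WT cells below that depth, the share with a Tlr7 UMI was 1.90% in KO and 3.80% in WT. The same thinning left 0.0901% of KO and 0.170% of WT keratinocyte-like cells with one, with 308 KO and 1982 WT cells of that class left out. Plasmacytoid dendritic cells are the other main Tlr7-bearing cell in textbooks. No cell of either library held 3 or more of 7 genes of that type, and 5 KO and 3 WT cells held 2. The count of 0 allows up to 0.0293% of KO and 0.0215% of WT cells with 3 or more of these genes, which is no limit on cells of the type that show fewer.

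**Figure D1:**
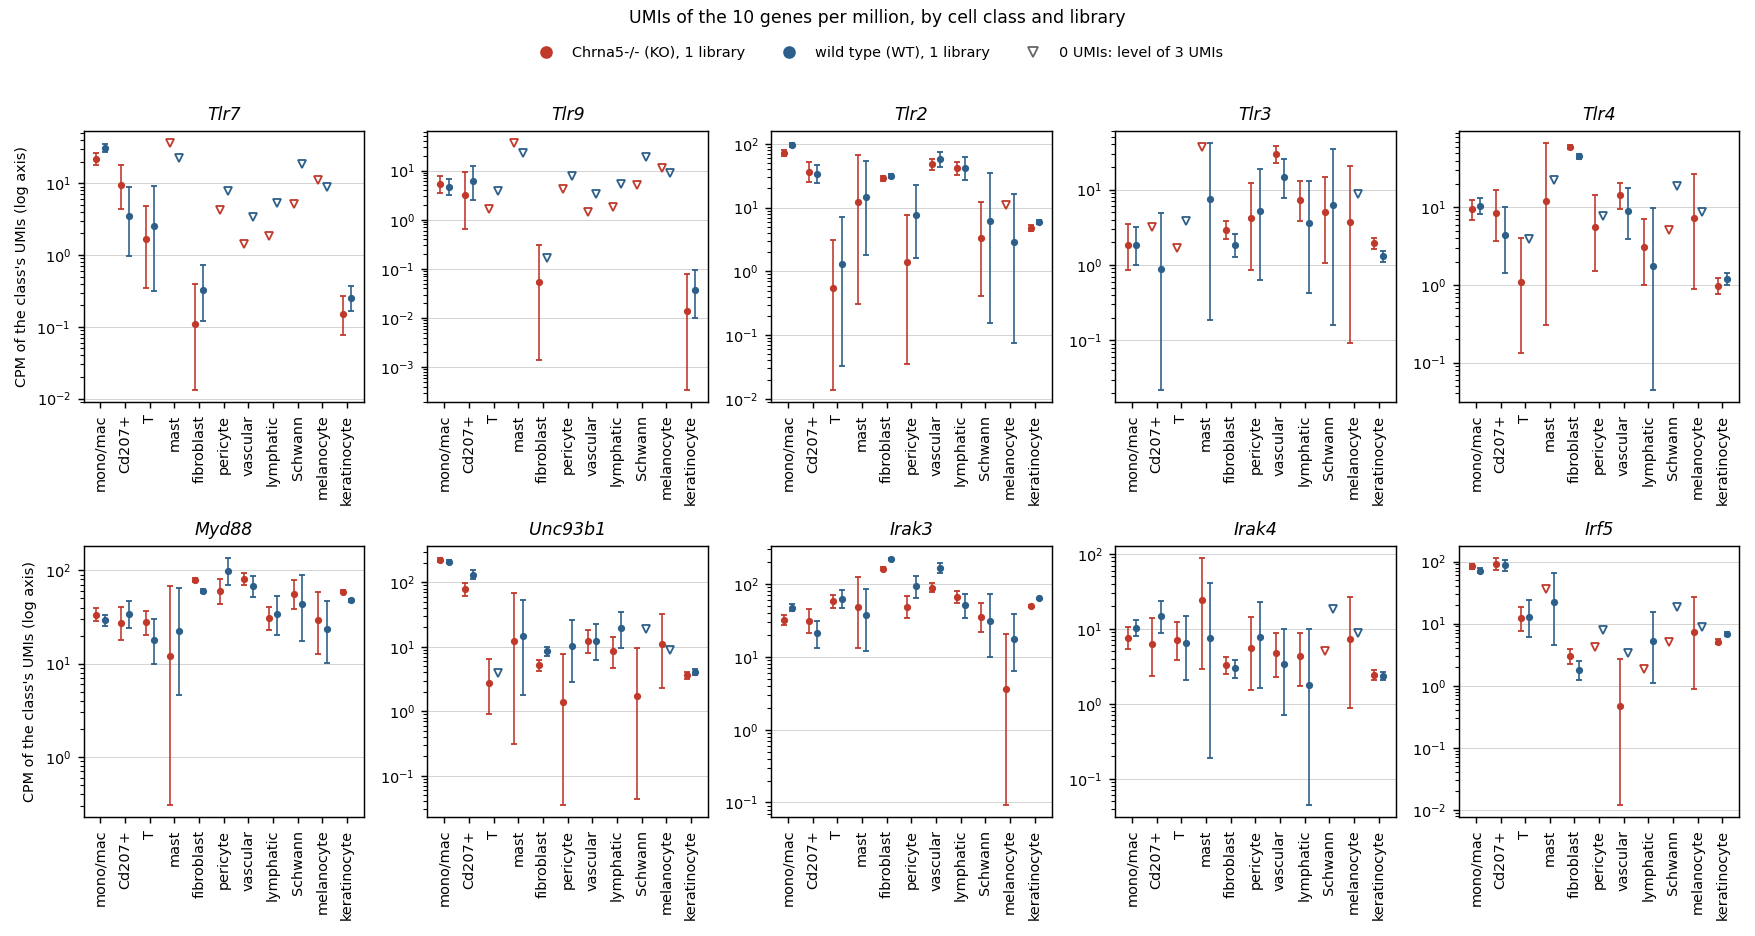
Levels of the 10 genes (CPM of the class's UMIs, log axis, a separate scale for each gene) in 11 cell classes, with 1 KO library (red, left) and 1 WT library (blue, right) per class; bars are exact 95% Poisson intervals and open triangles mark the level of 3 UMIs where 0 were seen. Tlr7 is high in monocyte and macrophage-like cells, and Tlr9, Unc93b1 and Irf5 in these and in Cd207+ cells. Tlr4 and Irak3 are high in fibroblast-like cells, and Tlr3 in vascular endothelial-like cells.

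Tlr9, Unc93b1 and Irf5 were also highest in monocyte and macrophage-like or Cd207+ cells. Tlr9, the DNA receptor, had 26 UMIs in KO (5.35 CPM) and 33 in WT (4.71 CPM) monocyte and macrophage-like cells, and 3 in KO (3.16 CPM) and 7 in WT (6.13 CPM) Cd207+ cells, too few to order these classes. In each other class it had 4 UMIs or fewer in either library. In monocyte and macrophage-like cells Unc93b1, the chaperone that Tlr7 and Tlr9 share, stood at 223 CPM (210 to 237) in KO and 210 CPM (199 to 221) in WT. Cd207+ cells came next with 78.0 CPM in KO and 131 CPM in WT. The step down to the following class was 6.29-fold in KO and 6.73-fold in WT. Irf5 was highest in Cd207+ cells (91.8 CPM in KO, 87.6 CPM in WT) and in monocyte and macrophage-like cells (83.6 CPM in KO, 71.3 CPM in WT), which did not differ beyond their intervals. T-like cells held 12.2 CPM of Irf5 in KO and 12.9 CPM in WT, and keratinocyte-like cells 5.13 CPM in KO and 6.92 CPM in WT. Among monocyte and macrophage-like cells, Unc93b1 was seen in 71.1% of the 83 KO cells with a Tlr7 UMI and in 60.3% of the 630 without one. In WT the shares were 83.9% of 149 and 61.2% of 619 cells, but cells with a Tlr7 UMI were also deeper, with medians of 6994 against 6347.5 UMIs in KO and 10902 against 8156 UMIs in WT.

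Tlr3, the receptor for double-stranded RNA, followed another order. Vascular endothelial-like cells stood at 29.6 CPM (22.7 to 37.9) in KO and 14.7 CPM (7.81 to 25.1) in WT, from 62 and 13 UMIs. That was 10.1-fold (6.90 to 14.9) above fibroblast-like cells in KO and 7.86-fold (3.81 to 15.3) above them in WT. With 71 vascular cells in WT, this class was too small for a comparison between genotypes. Keratinocyte-like cells, at 1.94 CPM in KO and 1.31 CPM in WT, held 45.5% of all Tlr3 UMIs in KO and 63.6% in WT and were the most numerous class. T-like cells had 0 Tlr3 UMIs in both libraries.

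The surface receptors were read from stroma as well as from myeloid cells. Tlr4 was highest in fibroblast-like cells, at 59.4 CPM (55.9 to 63.0) in KO and 45.6 CPM (42.6 to 48.8) in WT, and these cells gave 72.1% of its UMIs in KO and 68.8% in WT. The next class was 4.15-fold lower in KO and 4.38-fold lower in WT, and keratinocyte-like cells were 61.2-fold lower in KO and 38.0-fold lower in WT. Monocyte and macrophage-like cells held 9.47 CPM of Tlr4 in KO and 10.4 CPM in WT. Tlr2 was highest in monocyte and macrophage-like cells, at 72.7 CPM (65.3 to 80.7) in KO and 95.9 CPM (88.8 to 103) in WT. Vascular endothelial-like cells followed at 48.7 CPM in KO and 57.5 CPM in WT, lymphatic ones at 41.6 CPM in KO and 42.6 CPM in WT, Cd207+ cells at 36.9 CPM in KO and 34.1 CPM in WT, and fibroblast-like cells at 28.9 CPM in KO and 31.3 CPM in WT. Below the first step, adjacent classes in this order did not differ beyond their intervals, while vascular endothelial-like cells were 1.69-fold (1.35 to 2.09) above fibroblast-like cells in KO and 1.84-fold (1.35 to 2.45) in WT. Keratinocyte-like cells stood at 4.83 CPM of Tlr2 in KO and 5.99 CPM in WT. Within epithelium, the level was higher in a cluster led by Wfdc18, Cldn3 and Krt75, of which Krt75 is a hair follicle keratin, at 31.1 CPM in KO and 38.9 CPM in WT.

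Among the shared signalling genes, Myd88 had UMIs in every class, with the highest level in KO at 81.1 CPM, in vascular endothelial-like cells, and the highest in WT at 98.4 CPM, in pericyte and smooth muscle-like cells. Its lowest level in KO, 12.1 CPM in mast and basophil-like cells, is 1 UMI, and its lowest in WT was 18.0 CPM in T-like cells, from 14 UMIs. Fibroblast-like cells held 78.4 CPM in KO and 60.2 CPM in WT, keratinocyte-like cells 59.3 CPM in KO and 47.7 CPM in WT, and monocyte and macrophage-like cells 33.6 CPM in KO and 29.2 CPM in WT. The class richest in Tlr7 was thus below the fibroblast-like and keratinocyte-like classes in Myd88 in both libraries. Irak4 was low throughout, with monocyte and macrophage-like cells at 7.62 CPM in KO and 10.3 CPM in WT and keratinocyte-like cells at 2.40 CPM in KO and 2.35 CPM in WT. Irak3, the inhibitor, was highest in fibroblast-like cells, at 164 CPM (158 to 170) in KO and 220 CPM (213 to 227) in WT. Vascular endothelial-like cells followed at 89.7 CPM in KO and 166 CPM in WT, keratinocyte-like cells stood at 50.5 CPM in KO and 63.7 CPM in WT, and monocyte and macrophage-like cells at 32.1 CPM in KO and 47.7 CPM in WT. Irak3 also varied within epithelium. It stood at 7.35 CPM in KO and 9.34 CPM in WT in a cluster led by Nppc, Cxcl14 and Krt15, and at 96.3 CPM in KO and 110 CPM in WT in a cluster led by the lipid synthesis genes Elovl6, Scd1 and Fa2h.

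Levels in KO and WT were compared in the 4 classes with at least 100 cells in each library. A gene counts as measured with at least 20 UMIs over both libraries, and as called with a CPM ratio of at least 1.5-fold in either direction whose interval leaves out 1. In monocyte and macrophage-like cells, 0 of 10 members were called, where 10.7% of 10400 genes measured were called higher and 7.78% lower in KO. Unc93b1 had a KO over WT ratio of 1.06 (0.981 to 1.15) and Irf5 of 1.17 (1.03 to 1.34). Tlr7 had a ratio of 0.715 (0.562 to 0.905) and Tlr2 of 0.758 (0.665 to 0.864). Irak3 had a ratio of 0.674 (0.554 to 0.818), just inside the 1.5-fold limit. Tlr9, Tlr3, Tlr4, Myd88 and Irak4 had intervals that held 1.

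The class is a mixture, and it was split by genes listed for resident and for inflammatory cells, with limits set on these data. Resident macrophage-like cells, marked by Mrc1, Pf4, Cd163, Folr2 and 4 other genes, were 304 cells in KO (42.6% of the class) and 338 in WT (44.0%). Inflammatory monocyte-like cells were 37 in KO (5.19%) and 157 in WT (20.4%), and 372 KO and 273 WT cells were in neither. Of the class, 86 KO and 49 WT cells lay within 1.25-fold of the resident limit of 3000 CPM.

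Tlr2 and Tlr7 were lower in KO than in WT resident macrophage-like cells. Tlr2 had 102 UMIs in KO (52.4 CPM, 42.7 to 63.6) and 369 in WT (117 CPM, 105 to 129), a ratio of 0.449 (0.357 to 0.561). Tlr7 had 66 UMIs in KO (33.9 CPM, 26.2 to 43.1) and 162 in WT (51.2 CPM, 43.6 to 59.7), a ratio of 0.662 (0.489 to 0.887). These 2 were the called members of 9 measured, both lower, where 11.1% of genes measured were called higher and 7.33% lower in KO. The cells also differed in genes that mark the subgroups. The resident markers Mrc1 (1021 CPM in KO, 1558 CPM in WT) and Pf4 (3141 CPM in KO, 4659 CPM in WT) were at lower levels in KO. Clec4e, on the inflammatory list, was also lower (35.4 CPM in KO, 191 CPM in WT). S100a8, on neither list, was lower too (11.8 CPM in KO, 278 CPM in WT). Keratinocyte-like cells held 20743 of 21597 S100a8 UMIs in KO and 717569 of 736830 in WT. Fibroblast-like cells stood at 8.06 CPM of S100a8 in KO and 295 CPM in WT. Whether the S100a8 UMIs came from macrophages was not tested. The part of these genes in the result was not tested either. With Mrc1 and Pf4 left out of the gate, the ratio of Tlr7 was 0.541 (0.391 to 0.740) and that of Tlr2 0.458 (0.365 to 0.571). Unc93b1, at 216 CPM in KO and 217 CPM in WT resident macrophage-like cells, had a ratio of 0.997 (0.881 to 1.13). Irf5, at 47.8 CPM in KO and 41.1 CPM in WT, had a ratio of 1.16 (0.881 to 1.53).

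Monocyte and macrophage-like cells in neither subgroup showed 0 called members of 9 measured, where 11.5% of genes measured were called higher and 8.41% lower. There Tlr7 stood at 15.8 CPM in KO and 16.7 CPM in WT (ratio 0.949, 0.604 to 1.49) and Tlr2 at 81.7 CPM in KO and 86.0 CPM in WT (ratio 0.951, 0.784 to 1.15). Within each library, the resident level of Tlr2 over that of these cells was 0.641 (0.501 to 0.815) in KO and 1.36 (1.15 to 1.61) in WT. The order of the 2 subgroups for Tlr2 was thus opposite in the 2 libraries. For Tlr7 the same ratio was 2.14 (1.43 to 3.25) in KO and 3.08 (2.19 to 4.41) in WT, so resident cells were higher in both and the intervals overlapped.

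The inflammatory subgroup was too small in KO for a comparison, and its cells differed between the libraries in other genes. The antigen presentation genes H2-Ab1 (4296 CPM in KO, 1132 CPM in WT) and Cd74 (10858 CPM in KO, 3523 CPM in WT) were higher in KO, and the monocyte gene Ly6c2 was lower (34.7 CPM in KO, 161 CPM in WT). The joint cluster led by Chil3 and Ccl3 held 1 KO and 107 WT cells of the whole monocyte and macrophage-like class. The values below are given side by side, and the part of this difference in them was not tested. The inflammatory subgroup held 0 Tlr7 UMIs in KO, where 3 UMIs would be a level of 9.47 CPM, and 11 in WT (8.71 CPM). In WT the resident subgroup was 5.88-fold above it in Tlr7, with an interval that left out 1. Irf5 had the reverse order. It stood at 177 CPM in KO and 108 CPM in WT inflammatory monocyte-like cells, and resident cells were at 0.270 (0.192 to 0.384) of that level in KO and 0.379 (0.296 to 0.485) in WT. Irak3 stood at 18.9 CPM in KO and 64.9 CPM in WT inflammatory monocyte-like cells, from 6 and 82 UMIs.

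**Figure D2:**
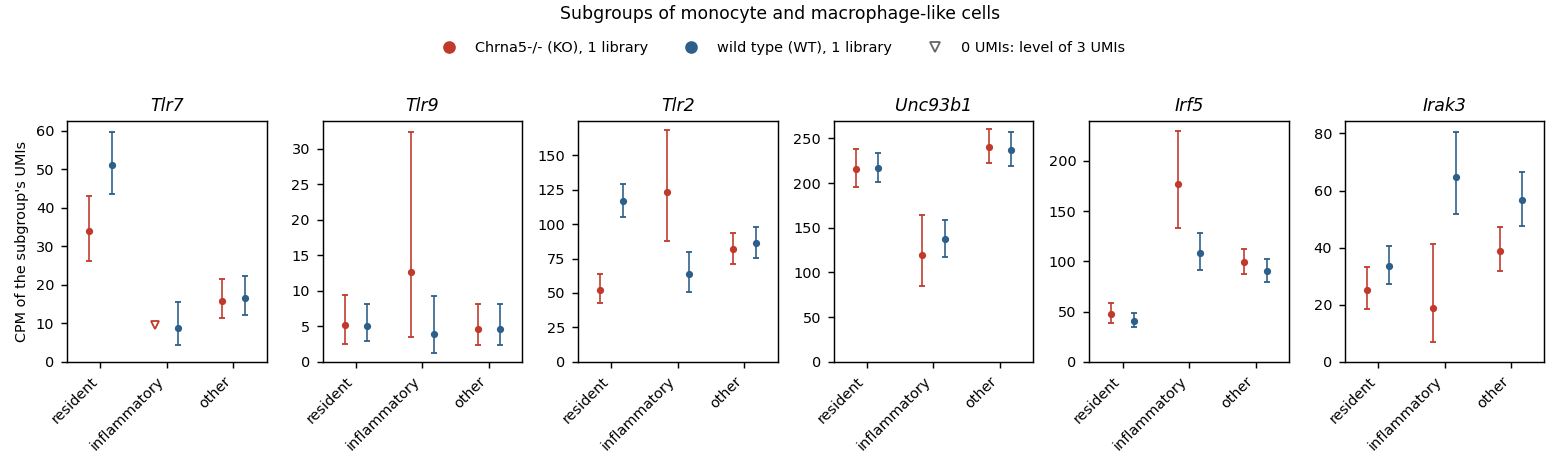
Levels of 6 genes (CPM of the subgroup's UMIs) in resident macrophage-like cells, inflammatory monocyte-like cells and the other cells of the class, with KO in red on the left and WT in blue on the right of each pair, 1 library each; bars are exact 95% Poisson intervals and the open triangle marks the level of 3 UMIs. In resident cells Tlr7 stands at 33.9 CPM in KO and 51.2 CPM in WT and Tlr2 at 52.4 CPM in KO and 117 CPM in WT, while Unc93b1 stands at 216 CPM in KO and 217 CPM in WT.

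The split was repeated with the joint clusters, which used variable genes among which no member was found. A cluster led by Pf4, Ccl8 and Cxcl13 held 309 KO and 259 WT cells. Its Tlr7 level was 31.9 CPM in KO and 57.4 CPM in WT (ratio 0.556, 0.405 to 0.755), and its Tlr2 level 55.4 CPM in KO and 123 CPM in WT (ratio 0.451, 0.358 to 0.564). A cluster led by Cd74, H2-Aa and H2-Eb1, with 508 KO and 553 WT cells, had 14.6 CPM of Tlr7 in KO and 14.2 CPM in WT, and 72.7 CPM of Tlr2 in KO and 77.2 CPM in WT. Irf5 there stood at 119 CPM in KO and 84.6 CPM in WT (ratio 1.41, 1.24 to 1.60). Tlr4 there passed the limits of a call, at 11.9 CPM in KO and 6.76 CPM in WT (ratio 1.76, 1.13 to 2.75), on 48 UMIs in KO and 40 in WT. With the resident limit at 2000 CPM, the ratio of Tlr7 was 0.691 (0.519 to 0.912) and it was no longer called.

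In fibroblast-like cells, 2 members were called higher and 1 lower in KO of 8 measured, where 13% of genes measured were called higher and 7.05% lower. The called members had few UMIs there. Tlr3 had 53 UMIs in KO (2.92 CPM) and 34 in WT (1.87 CPM), a ratio of 1.57 with a lower bound of 1.00. Irf5 had 54 UMIs in KO (2.98 CPM) and 33 in WT (1.81 CPM), a ratio of 1.65 (1.05 to 2.62). Unc93b1 had 94 UMIs in KO (5.19 CPM) and 157 in WT (8.62 CPM), a ratio of 0.602 (0.461 to 0.782). Unc93b1 was at 2.33% in KO and 4.10% in WT of its level in monocyte and macrophage-like cells, and whether these UMIs came from fibroblasts was not tested. Scaled by the median ratio of all genes, Tlr3 (1.49) and Irf5 (1.56) were not called, the second because its interval then held 1.

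The abundant members of fibroblast-like cells moved by less than 1.5-fold, with intervals that left out 1. Tlr4 had a ratio of 1.30 (1.19 to 1.43), Myd88 of 1.30 (1.20 to 1.41) and Irak3 of 0.745 (0.711 to 0.782). Different clusters held most of these cells in the 2 libraries. A cluster led by Tnfaip6, Lif and Mmp3 held 1380 KO and 169 WT fibroblast-like cells, and a cluster led by Mmp3, Ctsk and Grem1 held 67 KO and 1452 WT ones. Tlr4 in all cells of the first cluster stood at 76.6 CPM in KO and 26.8 CPM in WT (ratio 2.86, 2.02 to 4.18), and in the other at 82.8 CPM in KO and 51.8 CPM in WT (ratio 1.60, 1.13 to 2.20). It stood at 44.0 CPM in KO and 29.0 CPM in WT in a cluster led by Col3a1 and Has1 (ratio 1.52, 1.05 to 2.25), and at 39.3 CPM in KO and 39.4 CPM in WT in a cluster led by Col3a1 and Coch. Tlr4 thus passed the call, higher in KO, in 3 of the 4 fibroblast-like clusters with at least 50 cells of each library. The share of all genes that did so was not computed. The call in the cluster led by Mmp3 and Ctsk rests on 40 KO UMIs, and that in the Tnfaip6 cluster on 33 WT UMIs. An unnamed cluster led by Serpine2, Pappa2 and Crabp1 had the opposite direction, with 13.6 CPM in KO and 29.0 CPM in WT (ratio 0.470, 0.236 to 0.870). Of the 11 joint clusters of this size where Tlr4 was measured, its ratio was above 1 in 6 and under 1 in 5. Of 6634 genes measured in these, 56.3% were above 1 in at least as many.

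**Figure D3:**
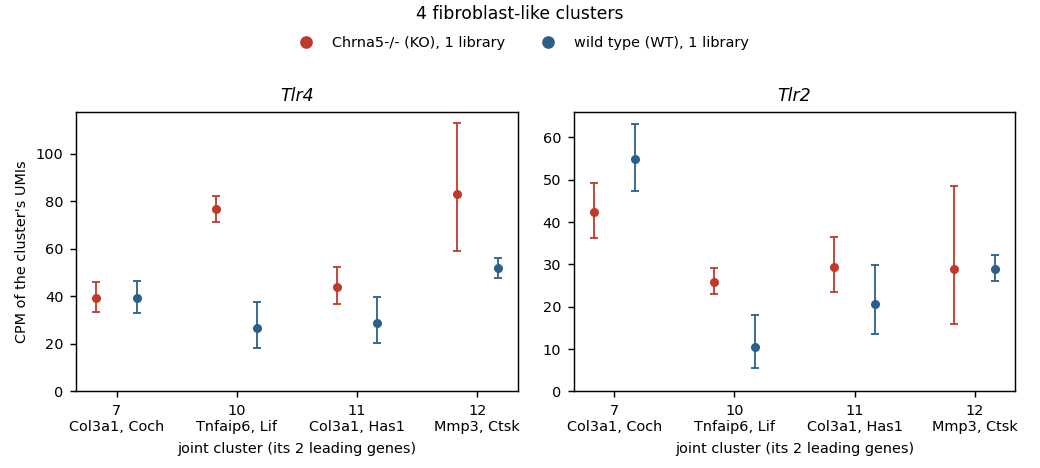
Tlr4 (left panel) and Tlr2 (right panel) in 4 fibroblast-like joint clusters named by number and 2 leading genes, as CPM of the cluster's UMIs, with KO in red on the left and WT in blue on the right of each pair, 1 library each; bars are exact 95% Poisson intervals. Tlr4 stands at 76.6 CPM in KO and 26.8 CPM in WT in cluster 10 and at 39.3 CPM in KO and 39.4 CPM in WT in cluster 7.

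Tlr2 in fibroblast-like cells had a ratio of 0.921 (0.816 to 1.04) over the class, and its clusters went both ways. It stood at 25.9 CPM in KO and 10.6 CPM in WT in the cluster led by Tnfaip6 (ratio 2.46, 1.41 to 4.68), from 270 and 13 UMIs. In the cluster led by Col3a1 and Coch it stood at 42.4 CPM in KO and 54.8 CPM in WT (ratio 0.773, 0.624 to 0.957).

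Irak3 was below WT in KO in most cell populations, by less than 1.5-fold in the class sums. It was measured in 23 of 24 joint clusters with at least 50 cells of each library, and its KO over WT ratio was under 1 in 19 of them, with a median of 0.766. In 14 clusters the interval lay wholly under 1, and in 1 wholly above. Of 3522 genes measured in all of these 23 clusters, 8.12% had a ratio under 1 in at least as many. The cluster with an interval above 1, led by the haemoglobin genes Hbb-bs and Hba-a1, rests on 2 WT UMIs. Among fibroblast-like clusters the ratio ran from 0.473 (0.355 to 0.619) in the cluster led by Mmp3 and Ctsk to 0.723 (0.648 to 0.809) in that led by Tnfaip6 and Lif. Keratinocyte-like cells of a cluster led by the differentiation keratin Krt1 and by Calm4 had 53.8 CPM in KO and 75.4 CPM in WT, a ratio of 0.714 (0.666 to 0.766). In the vascular cluster led by Fabp4 and Iigp1 Irak3 stood at 84.7 CPM in KO and 142 CPM in WT, a ratio of 0.598 (0.486 to 0.735). T-like cells, with 58.0 CPM in KO and 63.1 CPM in WT, had a ratio of 0.920 (0.650 to 1.32). These clusters share 1 library per genotype and are not independent of each other.

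**Figure D4:**
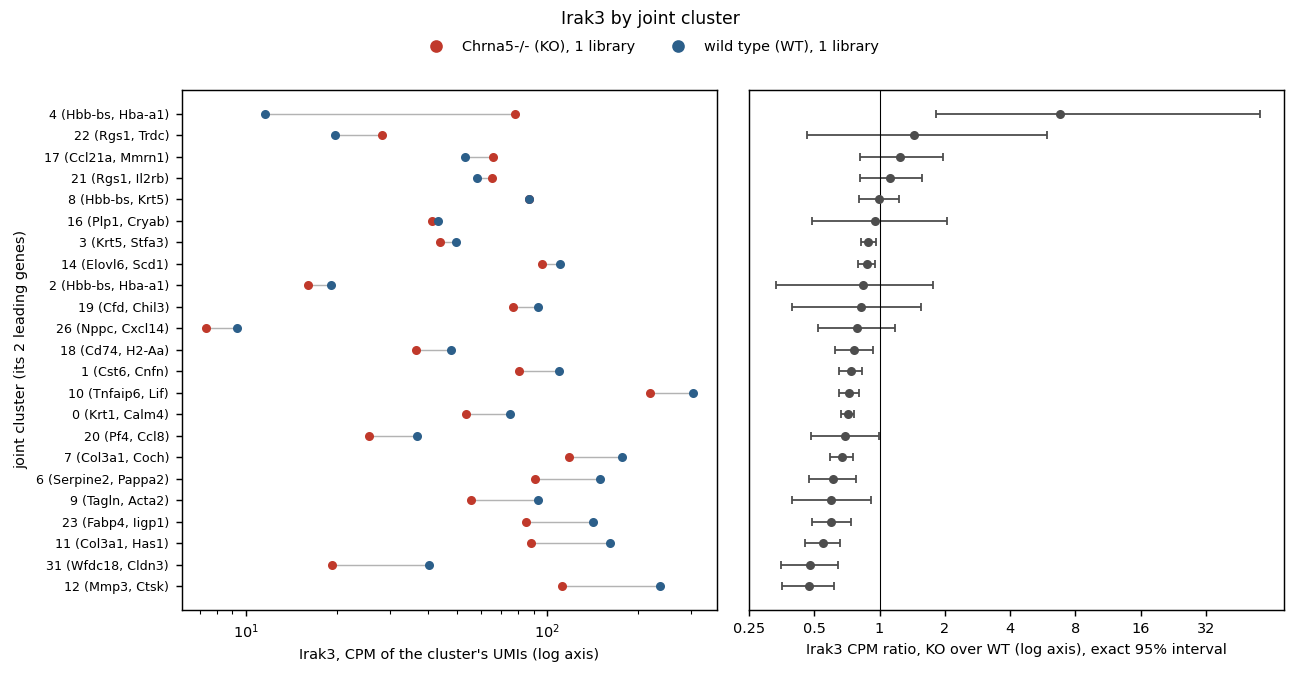
Irak3 in 23 joint clusters named by number and 2 leading genes, as CPM in KO (red) and WT (blue) on a log axis (left panel) and as the KO over WT ratio with its exact 95% interval on a log axis (right panel), 1 library each. The ratio lies under 1 in 19 clusters, and 14 intervals lie wholly under 1, a count that was not made over all genes.

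Tlr3 went the other way. It was measured in 7 clusters and its ratio was above 1 in all 7, with a median of 1.79 and a range of 1.25 to 3.08. Of 7278 genes measured in these 7 clusters, 12.6% were above 1 in as many. The interval left out 1 in 2 of them. The vascular cluster had 27.3 CPM in KO and 12.5 CPM in WT (ratio 2.18, 1.24 to 4.11), and the keratinocyte cluster led by Krt5 and Stfa3 had 1.93 CPM in KO and 1.06 CPM in WT (ratio 1.81, 1.15 to 2.90).

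In keratinocyte-like cells, 0 of 9 members measured were called, where 12.4% of genes measured were called higher and 11.3% lower in KO. The class held 3636 KO and 8455 WT cells with medians of 15118.5 and 2871 UMIs, so the WT sum draws on many shallow cells. Different joint clusters held much of the class in the 2 libraries. The cluster led by Klk6 and Cst6 held 1 KO and 339 WT cells of it, that led by haemoglobin genes and Sprr2d 17 KO and 1847 WT, that led by Retnla 7 KO and 422 WT, and that led by Rrm2b 0 KO and 894 WT. The cluster named erythroid by its markers held 535 KO and 28 WT cells of the class. The part of this makeup in the ratios was not tested. Myd88 had a ratio of 1.24 (1.19 to 1.29), Tlr3 of 1.48 (1.16 to 1.88), Irak3 of 0.792 (0.761 to 0.825), Irf5 of 0.740 (0.652 to 0.840) and Tlr2 of 0.808 (0.707 to 0.922). The direction of Tlr2 turned with the cells taken. Its ratio was 0.425 (0.220 to 0.767) after thinning. It was 1.95 (1.56 to 2.46) where keratinocytes were taken from the 3 clusters named as such by markers. Of these, the cluster led by Wfdc18 and Cldn3 held 213 KO and 86 WT cells. It gave 168 KO and 78 WT Tlr2 UMIs, at 31.1 CPM in KO and 38.9 CPM in WT. The cluster led by Krt1 and Calm4 gave 49 KO and 34 WT UMIs, and that led by Cst6 and Cnfn 6 and 7. The part of these cell numbers in the ratio of 1.95 was not tested. Unc93b1 (0.889) and Tlr4 (0.809) likewise turned to 1.31 and 1.24 in the sum of those 3 clusters. In the cluster led by Krt1 and Calm4, Tlr2 stood at 2.08 CPM in KO and 1.20 CPM in WT, and in that led by Krt5 and Stfa3 at 2.38 CPM in KO and 3.61 CPM in WT. Myd88 in the first of these stood at 90.8 CPM in KO and 59.5 CPM in WT, a ratio of 1.53 (1.43 to 1.63). Other epithelial clusters did not share this rise. The Myd88 ratio was 0.966 in the cluster led by Cst6 and Cnfn, 1.04 in that led by Krt5 and 0.994 in that led by Nppc, with intervals that held 1. It was 0.795 (0.653 to 0.973) in the cluster led by Wfdc18 and 0.588 (0.490 to 0.704) in that led by Elovl6. In a cluster led by Hbb-bs, Hba-a1 and Col17a1 it was 0.406 (0.162 to 0.846), on 7 KO UMIs. In T-like cells 3 members were measured and 0 were called, where 9.08% of genes measured were called higher and 4.35% lower.

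**Figure D5:**
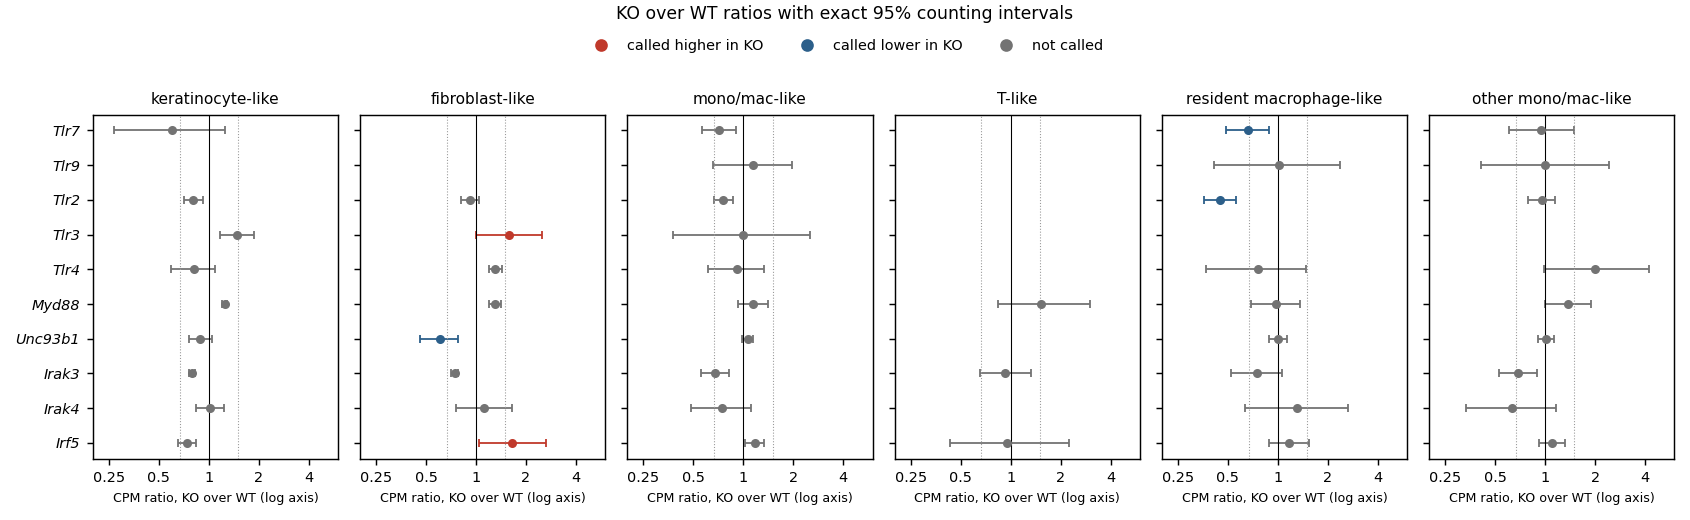
KO over WT CPM ratios of the measured members (log axis) with exact 95% counting intervals in 4 cell classes and 2 subgroups of monocyte and macrophage-like cells, 1 library per genotype; red is called higher in KO, blue called lower, grey not called, and dotted lines mark 1.5-fold. Calls are limited to Tlr3, Unc93b1 and Irf5 in fibroblast-like cells and to Tlr7 and Tlr2 in resident macrophage-like cells.

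Over all kept cells, Tlr3 was called higher (308 UMIs in KO, 220 in WT, ratio 1.67) and Tlr7 lower (140 UMIs in KO, 276 in WT, ratio 0.604, 0.490 to 0.743), where 21.4% of genes measured were called higher and 7.38% lower. This sum mixes each class's level with the makeup of the library. Fewer cells of a type and fewer UMIs per cell cannot be told apart in it.

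The surrounding pathway was taken as a list of 74 genes. In monocyte and macrophage-like cells 10 were called higher and 8 lower of 66 measured, with a median log2 ratio of 0.03 beside 0.07 over all genes, where 10.7% of all genes measured were called higher and 7.78% lower. Of the other receptors, 5 were measured and 1 was called. Tlr8, a close relative of Tlr7, had 7.00 CPM in KO and 6.42 CPM in WT, and Tlr13, the mouse sensor of bacterial ribosomal RNA, had 9.88 CPM in KO and 13.1 CPM in WT, both not called and both named here after their values were seen. Cd180, a TLR-like receptor that limits Tlr4 signalling, was higher, with 61.4 CPM in KO and 40.5 CPM in WT (ratio 1.51, 1.28 to 1.79). Among co-receptors, Cd14, which hands ligands to Tlr4 and Tlr2, was lower at 827 CPM in KO and 1280 CPM in WT (ratio 0.646). Cd36, a scavenger receptor that works with Tlr2, was higher at 404 CPM in KO and 212 CPM in WT (ratio 1.90). The endosomal protease Ctsb, the member of this group with most UMIs, was not called (ratio 1.28).

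Downstream genes of the same class went both ways. The ubiquitin ligase Peli1 (279 CPM in KO, 159 CPM in WT, ratio 1.75) and the transcription factor Irf4 (22.9 CPM in KO, 9.13 CPM in WT, ratio 2.50) were higher. The phosphatase Dusp1, a brake on MAP kinases, was higher at 1084 CPM in KO and 666 CPM in WT (ratio 1.63). Nfkb2 (22.2 CPM in KO, 46.5 CPM in WT, ratio 0.478), the NF-kappa B inhibitor Nfkbie (13.4 CPM in KO, 36.4 CPM in WT, ratio 0.368) and the inducible kinase Ikbke (1.85 CPM in KO, 5.14 CPM in WT, ratio 0.361) were lower. The adaptor Scimp was lower on 9 UMIs in KO and 51 in WT (ratio 0.255). Of 7 genes listed for actions of imiquimod outside TLR7, Pycard, the adaptor of the inflammasome, was lower (56.0 CPM in KO, 108 CPM in WT, ratio 0.520). The adenosine receptor Adora2a was higher (6.59 CPM in KO, 3.71 CPM in WT, ratio 1.78). Nlrp3, the inflammasome sensor, was not called over the class (ratio 0.741).

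In resident macrophage-like cells, where Tlr2 and Tlr7 were lower, 7 list genes were called higher and 12 lower of 61 measured, with a median log2 ratio of 0.03 beside 0.08, where 11.1% of all genes measured were called higher and 7.33% lower. The following were picked after their values were seen. Nfkb1 stood at 175 CPM in KO and 294 CPM in WT (ratio 0.595), Nlrp3 at 52.4 CPM in KO and 93.9 CPM in WT (ratio 0.558), and the inhibitor Tnip1 at 12.8 CPM in KO and 31.6 CPM in WT (ratio 0.406). Tollip, an inhibitor of Tlr2 and Tlr4 signalling, stood at 333 CPM in KO and 199 CPM in WT (ratio 1.67). In the monocyte and macrophage-like cells of neither subgroup, 14 list genes were called higher and 5 lower of 63 measured, where 11.5% of all genes measured were called higher and 8.41% lower.

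In fibroblast-like cells, 5 list genes were called higher and 12 lower of 60 measured, with a median log2 ratio of -0.01 beside 0.09, where 13% of all genes measured were called higher and 7.05% lower. Of the 12, 8 were among the 14 co-receptors and endosomal partners, all measured, and 0 of that group were higher. Ctsl, an endosomal protease that cleaves Tlr7 and Tlr9, was lower at 754 CPM in KO and 1240 CPM in WT (ratio 0.608). Slc15a3, an endosomal transporter, had 2.21 CPM in KO and 7.85 CPM in WT (ratio 0.281), at 0.745% in KO and 2.05% in WT of its level in the highest class. Irf7, an interferon regulator, was higher at 20.9 CPM in KO and 9.33 CPM in WT (ratio 2.24). Tnfaip3, the ubiquitin-editing brake on NF-kappa B, was higher at 415 CPM in KO and 223 CPM in WT (ratio 1.87). Nfkbie (6.79 CPM in KO, 12.9 CPM in WT, ratio 0.526) and the adenosine receptor Adora2b (4.19 CPM in KO, 11.9 CPM in WT, ratio 0.354) were lower.

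In keratinocyte-like cells, 12 list genes were called higher and 12 lower of 68 measured, with a median log2 ratio of 0.01 beside 0.03, where 12.4% of all genes measured were called higher and 11.3% lower. Of the 8 other receptors on the list, 4 were measured, 0 were higher and 3 lower. The median log2 ratio of the 4 was -1.16, and whether their UMIs came from keratinocytes was not tested. The higher genes included Irf1 (213 CPM in KO, 80.5 CPM in WT, ratio 2.64), Socs3, a brake on cytokine receptors (187 CPM in KO, 93.3 CPM in WT, ratio 2.01), Peli1 (202 CPM in KO, 113 CPM in WT, ratio 1.80) and Adora2b (4.85 CPM in KO, 1.80 CPM in WT, ratio 2.70). The lower genes included Cd14 (2.76 CPM in KO, 11.2 CPM in WT, ratio 0.246), Nlrp3 (0.720 CPM in KO, 2.39 CPM in WT, ratio 0.302) and Pik3ap1 (0.111 CPM in KO, 0.431 CPM in WT, ratio 0.257). Each of these 3 was under 1% of its level in the highest class in both libraries, and whether their UMIs came from keratinocytes was not tested. In T-like cells 3 list genes were called higher and 7 lower of 51 measured, where 9.08% of all genes measured were called higher and 4.35% lower. Irf8 (31.5 CPM in KO, 66.9 CPM in WT, ratio 0.471) and the inhibitor Socs1 (73.5 CPM in KO, 112 CPM in WT, ratio 0.657) were among those lower.

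Genes with the most similar levels were sought over 8 profiles, the 4 compared classes in both libraries, among 13238 genes, by Pearson correlation of log2(CPM + 1). Tlr7 was closest to Nrros, Slc28a2 and Lilrb4a (r = 0.993 each), and 150 genes exceeded 0.95. Unc93b1 was closest to Mfsd1, Bri3 and Wdr91 (r from 0.988 to 0.990), and Tlr9 to Fcna, March1 and Gnat3 (r from 0.998 to 0.999). Tlr9 had 81 UMIs in all, fewer than the 200 set for the genes searched. Of these, 26 in KO and 33 in WT were in monocyte and macrophage-like cells, so its r mainly sets that class apart from the others. Tlr2 was closest to Rab11fip5, Cd81 and Ctsb, Tlr4 to Banp, Fkbp7 and Tnpo1, Tlr3 to Ier3, Sgms2 and Crk, and Irf5 to Ninj1, Dctn1 and Mapk7. Myd88 was closest to Atg9a, Gtf3c4 and Mrto4, Irak4 to Ikbkb, Zdhhc12 and Fes, and Irak3 to Pde4b, Dmwd and Sox11 (r from 0.979 to 0.981). The profiles of 1 library share its depth and free RNA, so these are descriptions.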

How the data were processed

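The authors deposited 1 filtered matrix of unnormalised UMI counts for each library, per the file headers. Alignment to mm10 with Cell Ranger 3.0.2 and use of Seurat 3.0 are named in the submitters' processing notes, and the matrix header names software version 3.1.0. Barcodes needed 200 detected genes and no more than 10% of UMIs from mitochondrial genes, which 94.0% of 10886 KO and 95.7% of 14557 WT barcodes met. Classes were gated per cell by summed marker shares. Scrublet called 67 KO and 0 WT doublets and so did not work; cells over several gates were left out, and doublets were otherwise not removed. Joint Leiden clusters (Scanpy 1.11.5) used 2000 variable genes and 30 components. Ratios carry exact 95% intervals conditional on the summed counts, level intervals are Poisson and share intervals Clopper-Pearson. A count of 0 was read as at most 3. The method was run on simulated counts that held counting error alone. That run cannot show error from differences between libraries, free RNA or cell makeup. A rule picked pathway genes as those with most UMIs and the largest called change either way in each list. Not every gene it picked is named above, and some named genes were chosen after their values were seen, as stated there. The members, lists and gates were chosen with earlier results of these data known, and the gates' limits after the data were seen. Cell class names rest on this rebuilt annotation.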

Additional observations from a re-analysis of the deposited data

Results flagged for a closer look

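Tlr7 UMIs were also present in cells that entered no class comparison. Cells passing several gates held 4 Tlr7 UMIs in KO and 13 in WT, in 2.06% of 194 KO and 2.18% of 459 WT cells. Cells passing no gate held 4 Tlr7 UMIs in KO and 8 in WT, in 0.239% of 1673 KO and 0.662% of 1209 WT cells. These counts stand above the limit of 3 that a count of 0 allows, and what these cells are was not tested.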

How the results depend on the processing

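Each genotype is 1 library, so no replicate could be left out. No paired analysis was possible because each genotype has 1 library. No ratio called in the main values changed direction under the alternatives run. Tlr2 in keratinocyte-like cells, not called at 0.808, was called higher at 1.95 with classes from joint clustering and lower at 0.425 after thinning. In the cluster that gave most of the Tlr2 UMIs behind 1.95, led by Wfdc18 and Cldn3, the level was not higher in KO. It stood there at 31.1 CPM in KO and 38.9 CPM in WT. Of the member ratios recomputed, 262 stayed within the main interval and 30 moved out of it, 15 of them after thinning to 1000 UMIs. In keratinocyte-like cells, 0 members were called, against 1 higher with classes from joint clustering, 1 higher with no barcode filter and 1 lower after thinning. In fibroblast-like cells, the 2 called higher became 1 under joint clustering, 1 with no barcode filter, 1 after thinning and 0 on the median-ratio scale, and the 1 called lower, Unc93b1, was at 0.524 (0.242 to 1.09) after thinning, on 13 UMIs in KO and 22 in WT, and so was no longer called. In monocyte and macrophage-like cells, 0 were called lower, against 1 under joint clustering, with the highest doublet scores removed, with no barcode filter, with at most 5% mitochondrial UMIs and at least 1000 UMIs, and on the median-ratio scale, and 2 after thinning. Irak3 lies at this limit, with ratios of 0.503 to 0.674 over these settings. Of Tlr7 in that class, the ratio ran from 0.452 after thinning to 0.889 as a mean over cells. With a 2-fold limit, the pathway genes called were 4 higher in keratinocyte-like cells, 2 higher and 7 lower in fibroblast-like cells, and 1 higher and 4 lower in monocyte and macrophage-like cells. The share of all genes called at this limit was not computed, so these counts cannot be read as a result about the pathway. With at least 50 UMIs, 221 genes were called lower in T-like cells. After thinning, 1.90% of KO and 3.80% of WT monocyte and macrophage-like cells held a Tlr7 UMI. The resident macrophage split and all its alternatives were chosen after seeing the data. There the 2 called lower became 1 with the limit at 2000 CPM and 1 after thinning, the Tlr7 ratio ran from 0.446 to 0.691 and the Tlr2 ratio from 0.293 to 0.525. Why these values moved was not tested. Tlr9, Irak4 and the T-like and endothelial classes are limited by depth or cell number.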
